A study of Mus musculus with 12 samples.

Results

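The MHC class I antigen processing genes and the immunoproteasome subunits were followed here in bone marrow-derived dendritic cells (BMDCs), the antigen-presenting cells that grow out of mouse bone marrow in the growth factor GM-CSF. The set was fixed by gene symbol and held 10 of the 41709 genes in the deposited tables, namely the class I heavy chains H2-K1 and H2-D1, their light chain B2m, the peptide transporter subunits Tap1 and Tap2, the loading factor Tapbp, the immunoproteasome subunits Psmb8, Psmb9 and Psmb10, and the class I transactivator Nlrc5. All mice were homozygous for a floxed Itgb2 gene, which encodes CD18, the common chain of the β2 integrins. In CD18CD11c cKO mice a Cre recombinase under the CD11c promoter deletes CD18 in cells that express CD11c, so the control CD18fl/fl BMDCs (Cre-) and the cKO BMDCs (Cre+) shared the floxed alleles and differed in Cre. BMDCs of both genotypes were cultured for 10 days and were left untreated or received 100 ng/mL LPS, the bacterial ligand of Toll-like receptor 4, for 24 h by the labels. MHCII-positive cells were isolated with magnetic beads before RNA extraction, which gave 4 groups of 3 libraries and 12 libraries in all. Neither the labels nor the methods say whether the 3 libraries of a group came from separate mice and the labels give no age. The floxed allele was made in C57BL/6N embryonic stem cells, and Cre acts only once a culture's cells express CD11c.

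Almost every nucleated cell displays peptides from its own cytosol on MHC class I molecules, which are read by CD8+ T cells. Proteasomes cut the proteins, the TAP transporter moves the peptides into the endoplasmic reticulum, and tapasin, the product of Tapbp, holds empty class I molecules next to TAP until a peptide binds. Interferons raise this whole pathway, and they exchange the constitutive catalytic subunits of the proteasome for Psmb8, Psmb9 and Psmb10, which changes the spectrum of peptides. In dendritic cells the pathway serves priming of CD8+ T cells, also with antigen taken up from outside, a route called cross-presentation.

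Most of the members lie in the MHC region of chromosome 17, where Psmb9, Tap1, Psmb8 and Tap2 follow each other from position 34400961 to 34435295 of GRCm39. Tapbp (34134873 to 34148266), H2-K1 (34214991 to 34219321) and H2-D1 (35481706 to 35486475) are on the same chromosome. Psmb9 and Tap1 are transcribed away from each other, with RefSeq start sites separated by 225 bases, and their gene models overlap by 212 bases on opposite strands. B2m lies on chromosome 2 (121978167 to 121983564), and Psmb10 (106662367 to 106665076) and Nlrc5 (95160984 to 95253900) lie on chromosome 8. Because the members were read out together after LPS, the 250 bases upstream of the start sites in the RefSeq promoter table (build GRCm38.p6, placed on GRCm39 by exact match) were searched on both strands. The table held 8 of the 10 members, all but Tap2 and Nlrc5. An interferon-stimulated response element, written as a pair of GAAA repeats with 2 bases between them, was found for B2m and for 3.49% of 27025 promoters. Only exact matches to a pattern were counted for this and the other motifs. Variant forms of an element stay unmarked, so a member without a match may still carry one. The NF-κB consensus was found for H2-K1, H2-D1 and B2m and for 4.35% of all promoters, a STAT site (TTCNNNGAA) for Psmb8 and for 8.47%, and a CCAAT box (CCAAT) for 6 of the 8 members and for 37.9%. These shares were counted over the 250 upstream bases together with the first 50 transcribed bases. The stretches below show the matches to the first 3 motifs in capitals, and in H2-K1 and H2-D1 2 overlapping NF-κB matches share 1 run of 11 capitals.

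H2-K1, chr17:34219412-34219441, minus strand: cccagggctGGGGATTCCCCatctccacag
H2-D1, chr17:35481890-35481919, plus strand: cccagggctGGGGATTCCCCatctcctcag
B2m, chr2:121978026-121978055, plus strand: catGAAACTGAAAatgGGAAAGTCCCtttg
Psmb8, chr17:34417062-34417091, plus strand: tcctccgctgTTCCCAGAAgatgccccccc

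The heavy chain stretches were identical at 29 of 30 bases (A27T, H2-K1 base first, counted from the first base shown). In GENCODE the H2-D1, B2m and Psmb8 stretches are covered by an annotated exon of the same gene, whereas no exon covers the H2-K1 stretch. The surrounding upstream bases of H2-K1 that no annotated exon covers are shown to place the site, at chr17:34219393-34219571 on the minus strand.

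H2-K1 upstream: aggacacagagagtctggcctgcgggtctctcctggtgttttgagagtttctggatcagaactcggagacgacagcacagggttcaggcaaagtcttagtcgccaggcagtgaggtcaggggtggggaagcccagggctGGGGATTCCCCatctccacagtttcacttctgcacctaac

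The libraries held 29689149 to 34037178 gene reads each. The targeted gene Itgb2 was at 379 to 420 CPM in untreated CD18fl/fl and at 120 to 189 CPM in untreated cKO BMDCs, and after LPS at 167 to 267 and 89.7 to 119 CPM, so the genotypes did not overlap under either condition. CPM, the normalised read counts used here, are relative to the library total after TMM scaling, which sets the libraries to a common level by the trimmed mean of their log ratios. All 10 dendritic cell markers on the list were detected, with a summed level of 19150 to 40848 CPM (library size only) over the 12 libraries. Detection alone does not set them apart, since every other list was also detected in full except the erythroid one (5 of 6). The dendritic cell list includes H2-Aa, H2-Ab1, H2-Eb1 and Cd74 of the MHC class II pathway, and the cells were isolated by MHCII. Summed macrophage markers reached 450 to 2872, neutrophil markers 11.2 to 1599, basophil and mast cell markers 12.6 to 177, B cell markers 0.773 to 134, T and NK cell markers 3.85 to 48.8, erythroid markers 0.436 to 22.2, and markers of fibroblasts and endothelium 3.24 to 21.6 on the same scale. The replicate 3 libraries of all 4 groups stood apart, with neutrophil marker sums of 11.2 to 14.0 against 37.9 to 1599 and B cell marker sums of 0.773 to 3.06 against 9.19 to 134 in replicates 1 and 2. Basophil and mast cell sums went the other way, at 47.4 to 177 against 12.6 to 65.7. These, the fibroblast and endothelium sums and the erythroid sums were highest in replicate 3 of each group. In CD18fl/fl the dendritic cell sums of replicate 3 were 20460 against 30410 and 31870 untreated and 19150 against 33220 and 40848 with LPS. In cKO replicate 3 was lowest untreated (23010) but not with LPS (21700). The neutrophil marker list had up to 6 of its 10 genes at 0 in a library. After LPS, 5 of 10 macrophage markers fell and 1 rose with the block in each genotype, among them Csf1r (lower) and Marco (higher). Markers of other cells moved with LPS as well in the fits with the block. In CD18fl/fl 2 of 6 B cell markers tested fell (list median log2 fold change -1.57), as did 2 of 5 T and NK cell (-1.93), 2 of 4 basophil and mast cell (-1.61) and 1 of 5 neutrophil markers (-2.96). In cKO 2 of 6 B cell (-1.71), 1 of 4 T and NK cell (-2.15), 0 of 6 basophil and mast cell (-0.63) and 1 of 6 neutrophil markers (-3.04) fell. Of the 10 dendritic cell markers Cd86 rose in both genotypes, Itgax, which encodes CD11c, fell in both and Dpp4 fell in cKO, and Dcn of the fibroblast and endothelium list rose in both. In untreated cKO BMDCs 3 macrophage markers were higher and 3 lower than in CD18fl/fl with the block, and after LPS 2 were lower. Of the dendritic cell markers 3 were higher and 1 lower untreated and 1 was higher with LPS, and Cpa3 (untreated) and the B cell marker Ms4a1 (with LPS) were higher in cKO. The part of these changes in the results below was not tested. The RNA came from bead-isolated MHCII-positive cells in bulk, where fewer cells of a kind and less RNA per cell cannot be told apart.

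The members spanned more than 3 orders of magnitude in level. In TPM, which divide by exon length and so allow genes to be compared, untreated CD18fl/fl BMDCs had 4793 ± 1072 for B2m (SD, n = 3), 2191 ± 308 for H2-D1, 1681 ± 196 for H2-K1 and 542 ± 64.1 for Psmb8. Psmb9 (187 ± 51.7), Psmb10 (159 ± 39.7) and Tapbp (158 ± 22.4) followed, then Tap1 (72.5 ± 13.4), Tap2 (58.4 ± 4.18) and Nlrc5 (1.88 ± 0.360). H2-D1 and H2-K1, Psmb9 and Psmb10, Psmb10 and Tapbp, and Tap1 and Tap2 were neighbours in this order whose 3 libraries overlapped, while every other step was free of overlap. B2m, H2-D1, H2-K1, Psmb8 and Psmb9 kept this order in all 4 groups, Tap2 stayed ninth and Nlrc5 last. Uniquely placed reads made up 96.6% to 100% of each member's reads. Of the distinct 59-base windows in H2-K1 transcripts, 18.4% also occur in other genes, as do 22.8% for H2-D1 and 38.9% for Tapbp, mostly Gm53999 for H2-K1, 5430410E06Rik for H2-D1 and the overlapping genes Gm19412 and Zbtb22 for Tapbp. The kit does not mark strand, so reads from the overlap of Psmb9 and Tap1 cannot be assigned. The same holds for B2m, all 5398 bases of which lie within Patl2 on the opposite strand, a gene with 203 to 644 reads per library.

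**Figure D1:**
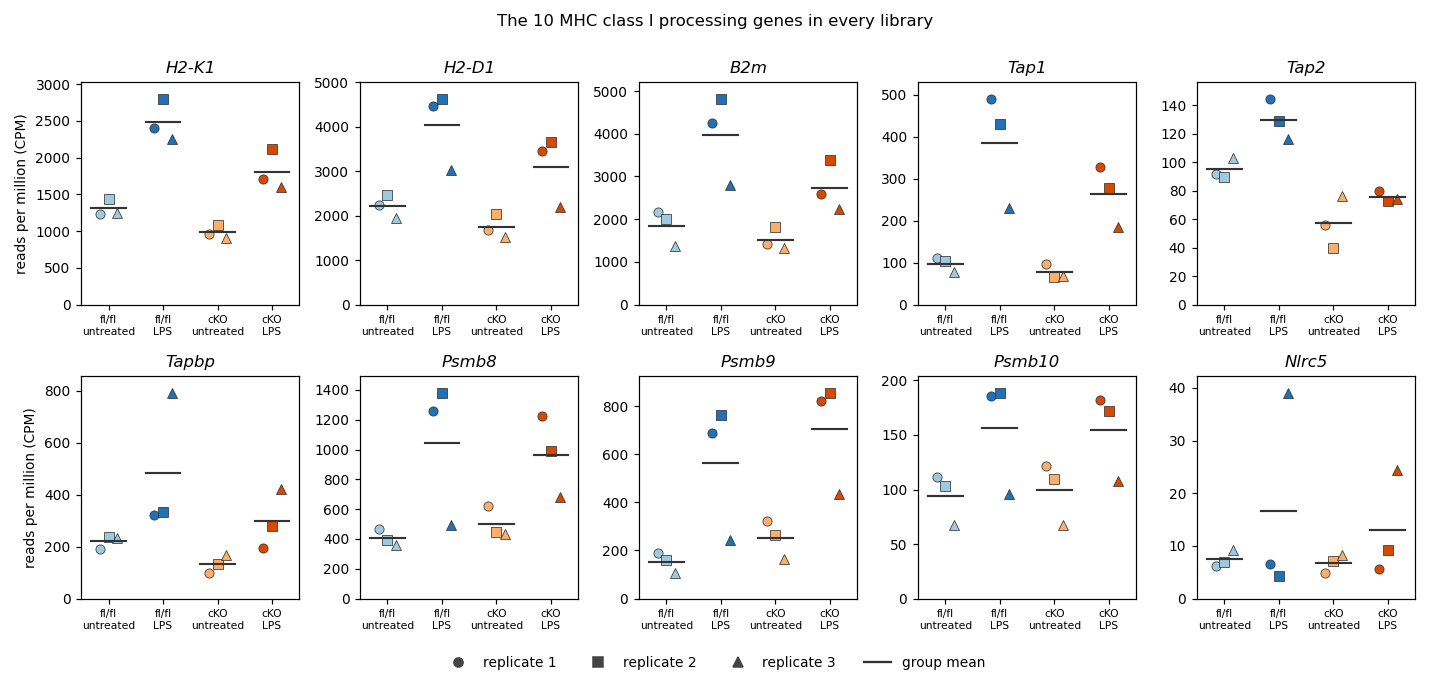
Normalised read counts (CPM, TMM-scaled, linear axis from 0) of the 10 genes in each of the 12 libraries, with the symbol giving the replicate number and the bar the mean of 3 libraries. The LPS groups lie above the untreated groups for most genes, and replicate 3 is the lowest LPS library for Psmb8, Psmb9, Psmb10 and Tap1 but the highest for Tapbp and Nlrc5.

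The response to LPS in CD18fl/fl BMDCs was upward across the set. All 10 members had a positive log2 fold change, with a median of 1.12 against -0.015 over all 12744 genes tested, and 8 members had LPS libraries that all lay above the untreated ones, which held for 13.6% of all genes. Only Tap1 passed the test without pairing (edgeR, Benjamini-Hochberg adjusted p under 0.05), where 2.06% of genes were called higher and 1.83% lower. Libraries with the same replicate number deviated together in this experiment. Once the replicate number entered as a block, 6 of 10 members rose, against 6.33% of all genes higher and 6.43% lower. Adding the exon length correction described below left 6 members (7.01% of genes higher, 7.1% lower). In CD18CD11c cKO BMDCs the median was 0.86 against -0.014, 7 members did not overlap (14.8% of all genes), 1 of 10 passed without the block (2.23% higher, 1.76% lower), again Tap1, and 8 of 10 passed with it (10.2% higher, 9.93% lower), or 7 with the exon length correction (10.3% and 9.85%). No member was called lower in either genotype, and none lay wholly below its untreated libraries (15.9% of genes in CD18fl/fl and 13.4% in cKO). The 2 LPS comparisons share no libraries.

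The heavy chains carry the peptide and are what CD8+ T cells see. H2-K1 stood at 1239, 1443 and 1247 CPM in untreated CD18fl/fl libraries and at 2403, 2802 and 2251 after LPS, and in cKO libraries at 961, 1085 and 913 untreated and 1710, 2116 and 1598 with LPS. The lowest LPS library lay above the highest untreated library in both genotypes. The log2 fold change was 0.93 ± 0.24 (SE) in CD18fl/fl (edgeR adjusted p = 0.0835, with the block 0.0305) and 0.82 ± 0.23 in cKO (0.0976, with the block 0.016). With the block H2-D1 also rose, from 2234, 2471 and 1943 to 4476, 4632 and 3032 CPM in CD18fl/fl and from 1668, 2033 and 1510 to 3450, 3661 and 2193 CPM in cKO. Replicate 3 was the lowest of its group for H2-D1 in all 4 groups. Its log2 fold changes were 0.87 ± 0.28 (edgeR adjusted p = 0.128, with the block 0.0391) and 0.78 ± 0.27 (0.162, with the block 0.0264).

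B2m, the light chain without which class I molecules do not reach the surface, had 2160, 1999 and 1379 CPM in untreated and 4252, 4822 and 2808 CPM in LPS-treated CD18fl/fl BMDCs. The cKO libraries had 1422, 1816 and 1325 CPM untreated and 2578, 3378 and 2235 CPM with LPS. No LPS library fell among the untreated ones in either genotype. The log2 fold change was 1.10 ± 0.33 in CD18fl/fl (edgeR adjusted p = 0.106, with the block 0.0209) and 0.79 ± 0.26 in cKO (0.143, with the block 0.0179).

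The transporter subunits, which act as a heterodimer, differed in their response. Tap1 moved from 111, 103 and 76.8 CPM to 491, 431 and 231 CPM in CD18fl/fl and from 97.6, 65.9 and 66.9 to 328, 279 and 185 CPM in cKO. Every LPS library was well above every untreated one, and replicate 3 was again the lowest LPS library. Tap1 rose by a log2 fold change of 1.99 ± 0.35 in CD18fl/fl (edgeR adjusted p = 0.0358, with the block 0.00772) and of 1.73 ± 0.29 in cKO (0.0308, with the block 0.00257), and it was the member with the greatest change in both. Tap2 was at 92.0, 89.8 and 103 CPM untreated and 145, 129 and 116 CPM with LPS in CD18fl/fl, and at 55.9, 40.0 and 76.1 and then 80.1, 72.9 and 73.9 CPM in cKO. The Tap2 groups were apart in CD18fl/fl but overlapped in cKO, where the untreated replicate 3 exceeded 2 LPS libraries. Tap2 passed neither test, with log2 fold changes of 0.46 ± 0.22 (edgeR adjusted p = 0.25, with the block 0.202) and 0.35 ± 0.28 (0.528, with the block 0.221).

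Tapbp encodes tapasin, the bridge between TAP and the empty class I molecule. In CD18fl/fl it was at 189, 237 and 235 CPM untreated and at 322, 333 and 793 CPM after LPS, and in cKO at 98.5, 132 and 167 CPM and then 195, 279 and 423 CPM. Here replicate 3 was the highest LPS library. The log2 fold change was 1.14 ± 0.41 in CD18fl/fl (edgeR adjusted p = 0.155, with the block 0.0809) and 1.14 ± 0.38 in cKO (0.141, with the block 0.00902), so that Tapbp rose with the block in cKO. Without the LPS replicate 3 the value was 0.57 in CD18fl/fl and 0.74 in cKO in the fits without the block. Zbtb22 is annotated inside Tapbp on the same strand and had 297 to 1084 reads per library against 2768 to 31189 for Tapbp.

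The immunoproteasome subunits give the proteasome its altered cleavage preference. Psmb9 went from 191, 161 and 107 CPM to 687, 761 and 245 CPM in CD18fl/fl and from 322, 264 and 164 to 820, 855 and 433 CPM in cKO, with replicate 3 lowest in every group. After LPS the replicate 3 library of CD18fl/fl stood at a log2 ratio of -1.565 to the mean of the others. The log2 fold change was 1.88 ± 0.47 in CD18fl/fl (edgeR adjusted p = 0.0774, with the block 0.0145) and 1.43 ± 0.36 in cKO (0.0708, with the block 0.00339). Psmb8 was at 466, 394 and 361 CPM untreated and at 1259, 1382 and 496 CPM with LPS in CD18fl/fl, and at 618, 449 and 432 and then 1226, 988 and 684 CPM in cKO. The groups did not overlap, but the CD18fl/fl replicate 3 library with LPS was only slightly above the untreated maximum. Psmb8 changed by 1.36 ± 0.41 (edgeR adjusted p = 0.111, with the block 0.0494) and 0.90 ± 0.28 (0.126, with the block 0.0155) on the log2 scale. Psmb10 had 112, 103 and 67.2 CPM untreated and 186, 189 and 95.8 CPM after LPS in CD18fl/fl and 122, 109 and 67.3 and then 183, 172 and 108 CPM in cKO. For Psmb10 the groups overlapped in both genotypes, since replicate 3 was low with and without LPS. Its log2 fold changes were 0.74 ± 0.35 (edgeR adjusted p = 0.25, with the block 0.076) and 0.58 ± 0.31 (0.337, with the block 0.0481).

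Nlrc5, which enters the nucleus and drives transcription of class I genes, was the scarcest member and the most variable. It had 6.27, 6.95 and 9.27 CPM in untreated and 6.61, 4.20 and 39.1 CPM in LPS-treated CD18fl/fl BMDCs, and 4.84, 7.20 and 8.24 and then 5.67, 9.25 and 24.4 CPM in cKO. Only the replicate 3 libraries were clearly higher after LPS, and the groups overlapped. Accordingly the log2 fold changes of 1.16 ± 0.80 in CD18fl/fl (edgeR adjusted p = 0.415, with the block 0.589) and 0.93 ± 0.58 in cKO (0.406, with the block 0.208) did not pass, and without replicate 3 the value in CD18fl/fl was -0.29 ± 0.32.

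**Figure D2:**
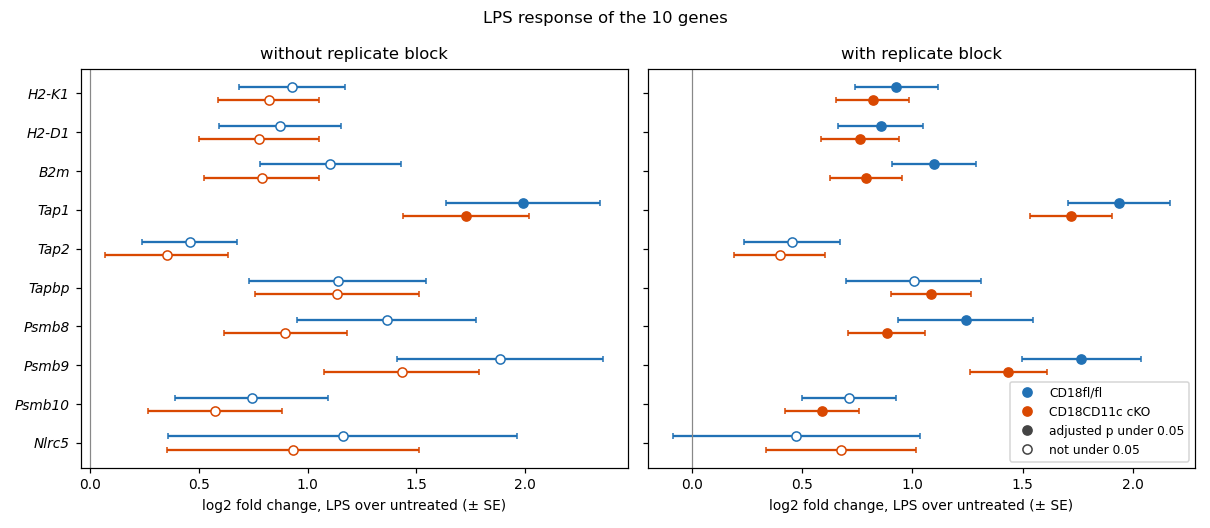
Log2 fold change with LPS over untreated (x axis, ± SE) for the 10 genes (y axis) in CD18fl/fl (blue) and CD18CD11c cKO (orange), from edgeR fits without (left) and with (right) the replicate number as a block, with filled symbols for an adjusted p under 0.05. Tap1 is filled on the left in both genotypes, and 6 genes in CD18fl/fl and 8 in cKO are filled on the right.

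The share of members called depended on replicate 3, the set of libraries that stood apart in the neutrophil, B cell and other marker sums and whose part in the result was not tested. With replicates 1 and 2 alone, 9 of 10 members rose in CD18fl/fl, all but Nlrc5, where 23.2% of all genes were called higher and 24.3% lower, and 4 of 10 rose in cKO (7.93% higher, 7.99% lower). Leaving out only the LPS replicate 3 of CD18fl/fl gave 7 members and 3268 genes called (12.2% higher, 12.5% lower), while leaving out its untreated replicate 3 gave 0 members and 506 genes, and leaving out any of the other 4 libraries gave no call. In cKO the LPS replicate 3 was likewise the library whose removal gave the most, 2 members and 1033 genes (4.12% higher, 3.68% lower), against 0 members without any other library. In each group most members deviated in 1 direction, with 7 of 10 members in both untreated groups and 8 of 10 in both LPS groups lower in replicate 3 than the mean of the other libraries. The share of all genes lower in replicate 3 was not counted, so these counts describe the members without a background. DESeq2 without the block called 5 members in CD18fl/fl (6.91% of genes called higher, 5.89% lower) and 3 in cKO (5.45% and 5.3%).

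Each immunoproteasome subunit takes the place of 1 constitutive catalytic subunit, so the ratio of reads per exon length within a library was followed. Scale factors of a library cancel in this ratio. A trend of a library's counts with exon length, as described below, does not cancel where the 2 genes differ in length. The ratios were not corrected for it. Psmb5 and Psmb7 were positive but not called after LPS in CD18fl/fl (log2 fold changes 0.88 ± 0.30 and 0.80 ± 0.30) or in cKO (0.59 ± 0.30 and 0.71 ± 0.28). Psmb6 rose with the block, by 1.29 ± 0.30 in CD18fl/fl (edgeR adjusted p = 0.0636, with the block 0.0441) and 0.90 ± 0.23 in cKO (0.0746, with the block 0.0205). The ratio of Psmb8 to Psmb5 was 1.90, 1.69 and 1.03 in untreated and 2.55, 2.15 and 1.30 in LPS-treated CD18fl/fl BMDCs, and 1.49, 1.05 and 1.20 and then 1.58, 1.33 and 1.81 in cKO. All 6 pairs of the same genotype and number went up, by a mean of 0.35 log2 units. For Psmb9 to Psmb6 the ratios were 0.456, 0.435 and 0.208 and then 0.654, 0.557 and 0.319 in CD18fl/fl, and 0.444, 0.338 and 0.194 and then 0.480, 0.534 and 0.349 in cKO. This ratio also went up in all 6 pairs, by a mean of 0.52 log2 units. Over 6 LPS against 6 untreated libraries neither difference passed a two-sided exact permutation test (p = 0.134 and 0.106, both 0.201 after adjustment over the 3 ratios), and with signs permuted within the pairs both reached p = 0.0313, the smallest value that 6 pairs can give (0.0469 after adjustment over the 3 ratios). The test within pairs takes the 6 pairs as independent. Same-numbered libraries of the 2 genotypes deviated together (replicate 3, correlations of 0.716 untreated and 0.693 with LPS), so its p-value may be too small. With replicates 1 and 2 alone neither passed after that adjustment (exact permutation, 0.457 and 0.0857). For Psmb9 to Psmb6 the exact permutation p before adjustment was 0.0286, the smallest value that 4 libraries against 4 can give. As the only small value among the 3 ratios it could not pass the adjustment. Within a genotype, 3 libraries against 3 cannot go below p = 0.1 in this exact permutation test.

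The third ratio behaved differently. Psmb10 to Psmb7 was 0.641, 0.729 and 0.404 in untreated and 0.606, 0.551 and 0.517 in LPS-treated CD18fl/fl BMDCs, and 0.374, 0.375 and 0.255 and then 0.358, 0.260 and 0.324 in cKO. LPS changed it by -0.06 log2 units (exact permutation p = 0.84, within pairs 0.656). Instead the genotypes were apart, since each cKO library lay below each CD18fl/fl library of the same treatment, with differences of -0.80 log2 units untreated and -0.84 with LPS (exact permutation p = 0.1 for each, the smallest possible with 3 against 3). Psmb8 to Psmb5 and Psmb9 to Psmb6 differed between the genotypes by -0.27 and -0.17 untreated and by -0.30 and -0.13 with LPS (exact permutation p = 0.5, 0.6, 0.5 and 0.7).

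**Figure D3:**
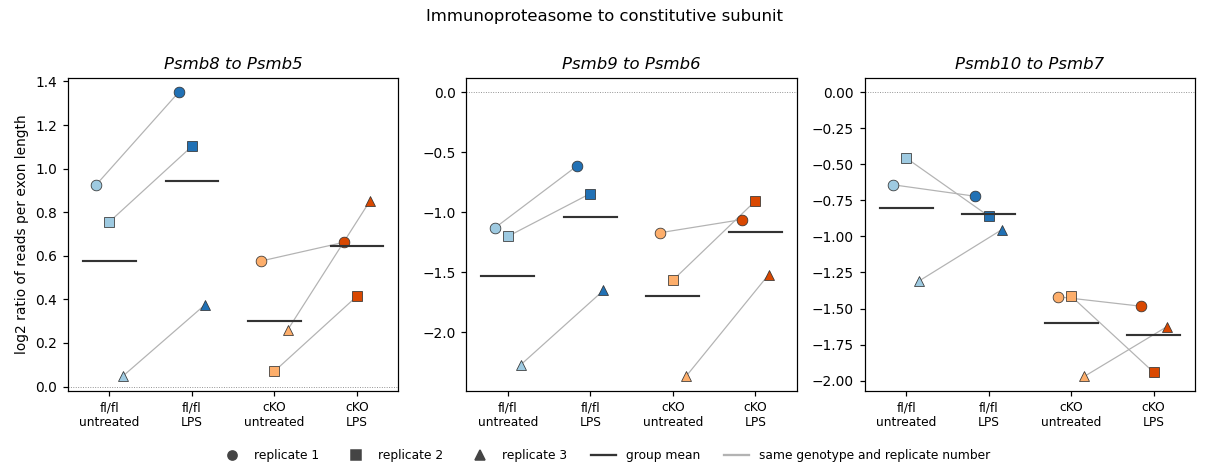
Log2 ratio of reads per exon length (y axis) of each immunoproteasome subunit to its constitutive counterpart in the 12 libraries (x axis, group), with symbols for the replicate number, bars for the mean of 3 libraries and grey lines joining untreated and LPS libraries of the same genotype and number. Lines rise in all 6 pairs for the first 2 ratios, and for Psmb10 to Psmb7 the cKO libraries sit below the CD18fl/fl libraries of the same treatment.

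Around the members, the non-classical class I genes showed the broadest response to LPS. Of 20 other heavy chain and class I-like genes on the list, 15 were tested in each genotype. Without the block 8 rose in CD18fl/fl and 10 in cKO, against 2.06% and 2.23% of all genes. With the block 10 and 12 rose (6.33% and 10.2% of all genes), and none was lower in either fit. The same shares of genes called higher apply to the next lists. These counts rest on total reads, so paralogs that share reads can count more than once. H2-T22 was at 105 to 167 CPM in untreated and 601 to 1942 CPM in LPS-treated CD18fl/fl BMDCs and at 117 to 186 and then 609 to 1310 CPM in cKO, log2 fold changes of 3.41 ± 0.50 (edgeR adjusted p = 0.0203) and 2.71 ± 0.35 (0.0173). H2-T24 rose by 3.01 ± 0.39 in CD18fl/fl (edgeR adjusted p = 0.0162), and so did H2-T10 by 3.36 ± 0.48 (0.0195). In cKO the smallest adjusted p values beside H2-T22 belonged to H2-Q6, with 2.39 ± 0.31 (edgeR adjusted p = 0.0173), and H2-Q7, with 2.44 ± 0.38 (0.0253). H2-Q4 and H2-T23, the second of which encodes the Qa-1 molecule that presents leader peptides to NK receptors, reached 481 and 1855 CPM at most. H2-M2, H2-M3, Cd1d1 and Mr1 are further genes with over 10 reads in every library, H2-Q1, H2-Q2, H2-Q10, H2-M5, H2-Bl and Cd1d2 had over 10 reads in some, and H2-T3 had 5 at most. H2-K1 and the H2-Q genes share stretches of sequence, so single reads between them are uncertain. With uniquely placed reads 6 members in CD18fl/fl (6.67% of genes higher, 6.75% lower) and 8 in cKO (10.5% and 10.3%) were called after LPS with the block.

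The regulators of class I transcription made up a list of 18 genes. Irf7, an interferon-induced transcription factor, was at 2.97 to 20.1 CPM untreated and 479 to 712 CPM with LPS in CD18fl/fl, and at 2.98 to 8.70 and then 391 to 509 CPM in cKO, log2 fold changes of 5.64 ± 0.75 (edgeR adjusted p = 0.0162) and 6.07 ± 0.50 (0.00916). Stat2 rose by 2.96 ± 0.29 (edgeR adjusted p = 0.0127) and 3.14 ± 0.37 (0.0131). That made 2 of 18 higher in CD18fl/fl and 3 of 18 in cKO, or 6 and 7 with the block, with none lower. Of 10 proteasome activators and assembly factors, 3 rose in each genotype and only with the block. These were Psme2 and Psme1, which form the PA28 cap, and the maturation factor Pomp, at 1.90 ± 0.23, 1.21 ± 0.23 and 1.15 ± 0.24 in CD18fl/fl (edgeR adjusted p with the block 0.00772, 0.0261 and 0.0329) and 1.59 ± 0.20, 0.99 ± 0.18 and 1.00 ± 0.19 in cKO (0.00385, 0.0114 and 0.0131).

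The remaining parts of the pathway moved in both directions and also only with the block. Among 10 loading chaperones and editing factors, the tapasin relative Tapbpl rose by 1.48 ± 0.21 in CD18fl/fl and 1.27 ± 0.19 in cKO (edgeR adjusted p with the block 0.0121 and 0.00664). Uggt1, which sends misloaded class I molecules back for editing, fell in both (log2 fold changes -1.76 ± 0.31 and -1.50 ± 0.18, 0.0213 and 0.00314), and in cKO Ganab (-0.88 ± 0.19) and Hsp90b1 (-0.65 ± 0.18) fell as well (0.0198 and 0.0429). Of 6 cytosolic peptidases tested, which trim or destroy peptides, Thop1 fell in both (-1.41 ± 0.33 and -1.45 ± 0.41, edgeR adjusted p with the block 0.0431 and 0.0479). Among 11 cross-presentation genes, the transcription factor Batf3 rose by 1.20 ± 0.21 and 1.44 ± 0.18 (edgeR adjusted p with the block 0.0197 and 0.0034) and Sec22b by 0.91 ± 0.22 in CD18fl/fl (0.0449), whereas Wdfy4 fell (-2.49 ± 0.36 and -1.81 ± 0.40, 0.0126 and 0.0221). These 7 lists were drawn up with earlier results of these data known, and their counts describe the lists and test none of them.

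**Figure D4:**
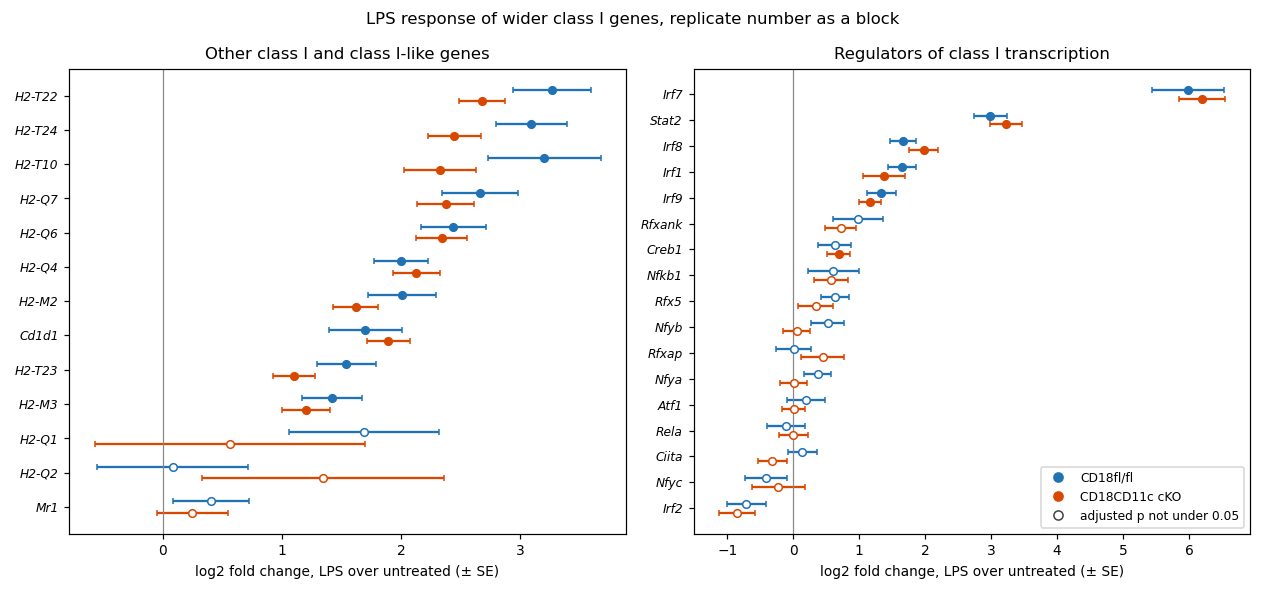
Log2 fold change with LPS over untreated (x axis, ± SE) in CD18fl/fl (blue) and CD18CD11c cKO (orange) for the other class I and class I-like genes (left, without H2-Q10 and Cd1d2, which had libraries near 0) and for regulators of class I transcription (right, without 1 gene that is not reported here), from edgeR with the replicate number as a block, with filled symbols for an adjusted p under 0.05. H2-T22 and Irf7 head their panels, and no filled symbol lies below 0.

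Next, the genotypes were compared at rest. In untreated BMDCs no gene was called between cKO and CD18fl/fl by edgeR without the block (0% in either direction), although 1395 genes were higher and 764 lower at an unadjusted p under 0.05, and DESeq2 called 491 higher (5.5%) and 47 lower (0.527%) with no member among them. The fit with the block called 1555 genes (12.1%) as higher and 1051 (8.16%) as lower in cKO, and 3 of the 10 members were called. Psmb9 was higher by 0.75 ± 0.13 (edgeR adjusted p with the block 0.00924, without it 0.315), and Tap2 and Tapbp were lower by log2 fold changes of -0.72 ± 0.18 (0.029, without the block 0.267) and -0.70 ± 0.15 (0.0199, without the block 0.247). H2-K1, Tap2 and Tapbp had cKO libraries that all lay below the CD18fl/fl ones, which held for 13.1% of genes, and no member lay wholly above (11.7% of genes). H2-K1 itself was not called, at -0.35 ± 0.14 (edgeR adjusted p with the block 0.107). The median of the 10 members was -0.26 against -0.048 over all genes. With replicates 1 and 2 alone 2 members passed, Psmb9 as higher (7.91% of genes) and Tap2 as lower (2.67%). In 1 fit of all 12 libraries with the block Tap2 passed (edgeR adjusted p = 0.0494), whereas Psmb9 (0.059) and Tapbp (0.0571) did not.

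Also after LPS no gene was called without the block (0% in either direction), with 770 genes higher and 442 lower at an unadjusted p under 0.05 and 141 higher (1.22%) and 9 lower (0.078%) by DESeq2, none of them a member. The fit with the block called 869 genes (6.98%) as higher and 393 (3.16%) as lower in cKO. Tap2 was lower by -0.80 ± 0.14 on the log2 scale (edgeR adjusted p with the block 0.0194, without it 0.361), as was Tapbp by -0.66 ± 0.16 (0.0467, without the block 0.684), and no member was higher. The Tapbp call did not hold with the block and RLE factors (-0.62 ± 0.16, edgeR adjusted p = 0.0551) or in 1 fit of all 12 libraries with the block (0.123), where Tap2 was at 0.056. In the fits without the block the Tapbp difference was -0.17 without the CD18fl/fl LPS replicate 3 and -1.08 without the cKO LPS replicate 3. H2-K1 (-0.49 ± 0.12), B2m (-0.55 ± 0.14) and Tap1 (-0.54 ± 0.14) fell just short with adjusted p values of 0.0501, 0.0501 and 0.0549 in the edgeR fit with the block. The Tap2 groups were clearly apart, with 116 CPM in the lowest CD18fl/fl library and 80.1 CPM in the highest cKO library, and H2-K1 was the other member without overlap (8.09% of genes lower, 9.51% higher). The median of the members was -0.45 against -0.11 over all genes, and with replicates 1 and 2 alone only Tap2 passed (0.977% of genes lower, 3.24% higher). Counting only uniquely placed reads with the block gave 5 members as lower in place of 2 (3.73% of genes lower, 7.45% higher), with H2-K1, B2m and Tap1 just under the threshold (edgeR adjusted p = 0.0479, 0.0459 and 0.0498).

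The genotype differences depended on scaling, and the libraries differed in composition between the genotypes. TMM factors were 1.21 to 1.26 in untreated CD18fl/fl and 0.94 to 1.07 in untreated cKO libraries, and 0.88 to 1.16 and 0.75 to 0.94 after LPS. Without TMM, the 10 members together took 0.82%, 0.883% and 0.697% of the gene reads in untreated CD18fl/fl and 0.504%, 0.569% and 0.506% in untreated cKO libraries, and 1.38%, 1.36% and 1.17% against 0.837%, 0.881% and 0.746% after LPS. The cKO libraries were thus lower in this summed share at both conditions without overlap. H2-K1, H2-D1 and B2m weigh most in it. In untreated CD18fl/fl replicate 1 they had 44666, 80500 and 77834 reads, against 16801 for Psmb8, the next member. The median of all genes shifted as well, to -0.44 untreated and -0.37 with LPS. In the fit with the block on library size only, 6 members were lower in cKO under each condition, namely H2-K1, H2-D1, B2m, Tap1, Tap2 and Tapbp, Psmb9 was no longer called, and the counts over all genes turned to 701 higher (5.44%) and 3882 lower (30.1%) untreated and 590 higher (4.74%) and 2052 lower (16.5%) with LPS. Psmb8 and Psmb10 changed sign in untreated BMDCs under this scaling, from 0.34 to -0.05 and from 0.13 to -0.26.

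Exon length mattered to the shortest members. When a trend of each library's counts with exon length was taken out together with the block, B2m, with 860 exon bases the shortest of the 10, moved from -0.21 to -0.89 ± 0.17 untreated (edgeR adjusted p = 0.0195) and from -0.55 to -1.10 ± 0.14 with LPS (0.00879). H2-K1 then passed under both conditions as well, at -0.64 ± 0.13 (edgeR adjusted p = 0.026) and -0.67 ± 0.13 (0.0246). Tapbp stayed called untreated (-0.67 ± 0.15, edgeR adjusted p = 0.0312) and Tap2 with LPS (-0.69 ± 0.14, 0.0294), and Psmb9 stayed higher untreated at 0.49 ± 0.13 (0.0465). Tap2 untreated (-0.62 ± 0.17, edgeR adjusted p = 0.0526) and Tapbp with LPS (-0.58 ± 0.17, 0.0783) were no longer called. Background was 7.56% higher and 4% lower untreated and 5.01% higher and 2.83% lower with LPS in that fit. The direction that held under all 3 scalings in both conditions was lower for the heavy chains, B2m, Tap1, Tap2 and Tapbp, and higher for Psmb9.

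**Figure D5:**
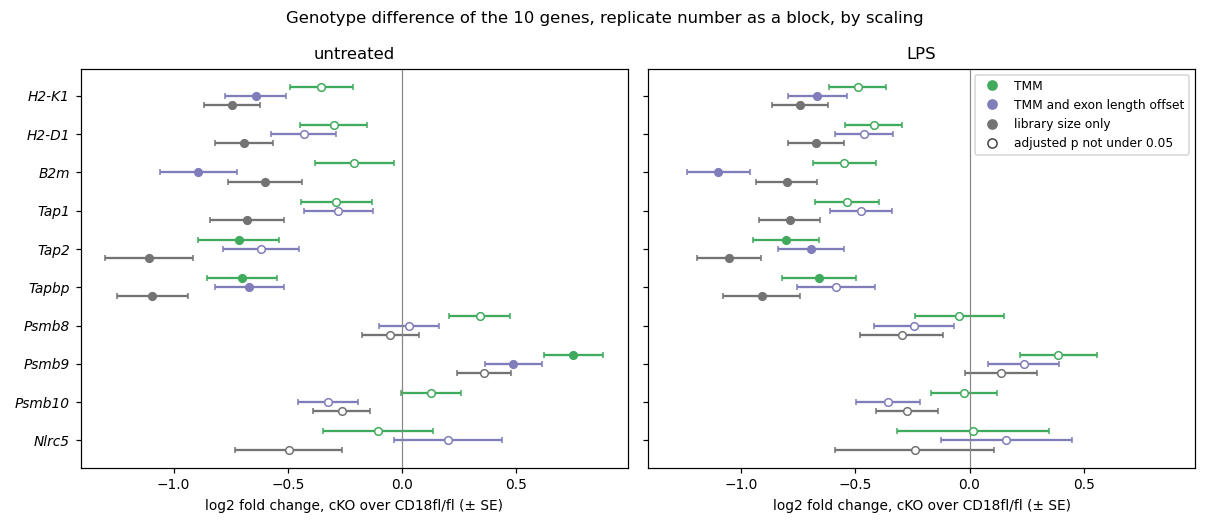
Log2 fold change of CD18CD11c cKO over CD18fl/fl (x axis, ± SE) for the 10 genes (y axis), untreated (left) and with LPS (right), from edgeR with the replicate number as a block under 3 scalings, with open symbols where the adjusted p is not under 0.05. H2-K1, H2-D1, B2m, Tap1, Tap2 and Tapbp lie left of 0 throughout, Psmb9 lies right of 0, and Psmb8, Psmb10 and Nlrc5 fall on either side.

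Before the exon length correction, the constitutive subunits that were called went the other way from the presentation genes. In untreated cKO BMDCs Psmb5, Psmb6 and Psmb7 were higher with the block, by 0.61 ± 0.18, 0.92 ± 0.14 and 0.93 ± 0.14 (edgeR adjusted p = 0.0472, 0.00634 and 0.00592), and after LPS Psmb7 was, by 0.82 ± 0.13 (0.0149). None of them was called once the exon length trend was removed (-0.05 ± 0.16, 0.20 ± 0.13 and 0.41 ± 0.13 untreated). The genes of the wider lists named in this paragraph and the next were not corrected for exon length, so their differences may hold such a trend. Of the assembly list 5 of 10 were higher untreated, against 12.1% of all genes with the block. They were led by Psmg4 (1.32 ± 0.16, edgeR adjusted p with the block 0.00324), Pomp (1.19 ± 0.16, 0.00405) and Psme2 (0.83 ± 0.14, 0.00772). With LPS 2 of 10 were higher (6.98% of all genes), Psmg4 (1.41 ± 0.14, 0.00641) and Pomp (1.00 ± 0.14, 0.0103). Calr, the chaperone calreticulin of the loading complex, was higher by 0.79 ± 0.15 and Bcap31 by 0.57 ± 0.14 in untreated cKO BMDCs (edgeR adjusted p with the block 0.0133 and 0.0305), and Uggt1 was lower (-0.66 ± 0.15, 0.0216). The peptidase Npepps was lower untreated (-0.78 ± 0.14, edgeR adjusted p with the block 0.00945).

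Among the class I-like genes, H2-M3, Cd1d1 and H2-M2 were higher in untreated cKO BMDCs by 0.73 ± 0.14, 0.99 ± 0.20 and 0.51 ± 0.14 (edgeR adjusted p with the block 0.0127, 0.0151 and 0.0364), while H2-Q4 and H2-Q6 were lower (-0.66 ± 0.14 and -0.62 ± 0.14, 0.0176 and 0.0252). With LPS Cd1d1 stayed higher (1.15 ± 0.28, edgeR adjusted p with the block 0.0459) and H2-Q6 lower (-0.74 ± 0.16, 0.0302). Of the 18 regulators Rela and Irf8 were lower untreated (-0.69 ± 0.16 and -0.50 ± 0.14, edgeR adjusted p with the block 0.0234 and 0.0398), and Rfx5, a factor that binds class I promoters together with Nlrc5, was lower with LPS (-0.94 ± 0.23, 0.045). Cross-presentation genes included Vamp8 and Batf3 as higher at both conditions (1.15 ± 0.13 and 0.72 ± 0.16 untreated, 0.75 ± 0.13 and 0.94 ± 0.19 with LPS, edgeR adjusted p with the block 0.00318, 0.0215, 0.0183 and 0.0263) and Rab43 as lower untreated (-0.86 ± 0.14, 0.00787).

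Whether the response to LPS differed between the genotypes was tested as an interaction over all 12 libraries. No member and no gene of the 13752 tested passed in edgeR without the block (0%; 48 genes positive and 49 negative at an unadjusted p under 0.05), with the block, or in DESeq2, while DESeq2 with the block called 129 genes and none of the members. The estimates for the members, as response in cKO minus response in CD18fl/fl on the log2 scale, ran from -0.41 ± 0.51 for Psmb8 to 0.04 ± 0.55 for Tapbp. For B2m the value was -0.26 ± 0.40, for Psmb9 -0.39 ± 0.62, for Tap1 -0.20 ± 0.46 and for H2-K1 -0.05 ± 0.29. Differences of the size of these standard errors were not detectable with 3 libraries a group.

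Profiles over the 12 libraries were also set against the mean profile of the 10 members, as the root mean square difference of centred log2 CPM. The genes outside the set nearest to it among 13752 were Azi2 (0.137), Lims1 (0.159) and Prpf38b (0.178), against a median of 0.867 over all genes. Within the set H2-K1 (0.145), H2-D1 (0.198) and B2m (0.202) followed the mean most closely, and Psmb9 (0.658) and Nlrc5 (0.948) least. Each member is part of the mean it was set against, so its value is not on the same footing as those of genes outside the set. The points share libraries and scaling, so these values are a description.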

How the data were processed

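Total RNA of MHCII-positive BMDCs was made into poly(A)-selected, non-stranded libraries (15 PCR cycles) and sequenced as 59-base single reads. Per the study's methods the reads were mapped and counted in CLC Genomics Workbench with default settings, and the authors deposited, for each library, total and unique read counts per gene together with TPM values. The methods name GRCm39 and the submitters' processing notes GRCm38, and the coordinates in the files match GRCm39. Total gene read counts as deposited were the base of all tests, and the deposited TPM served only to compare levels between genes. PCR duplicates were not marked by molecular identifiers, so counting error is a lower limit of the error.

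Groups were taken from the sample titles. Each comparison was fitted in edgeR 4.0.16 (R 4.3.3) on its 6 libraries (interaction: 12) with genes passing filterByExpr (minimum count 10), TMM factors, glmQLFit and glmQLFTest, Benjamini-Hochberg adjustment over all genes tested and a threshold of 0.05. Standard errors were derived from the log2 fold change and the F statistic. As same-numbered libraries of compared groups deviated together (12 pairs, correlations of 0.265 to 0.716 between deviations from the group means), values with the replicate number as a block are given where they change a call. Replicates 1 and 2 of compared groups also correlated with each other (8 pairs, 0.154 to 0.334), in 1 case above a same-numbered pair of the same comparison, and replicate 3 ran against both (16 pairs, -0.571 to -0.321). No 2 libraries agreed within sampling noise. Since nothing says that replicates came from separate mice, p-values measure the spread between these samples. Ratios of subunits were tested by exact permutation (SciPy 1.17.1). Alternatives were RLE factors, library size only, other filters, unique reads, DESeq2 1.42.0, an exon length offset (lowess, span 0.3), all libraries in 1 fit and leaving out each library. The exon length offset without the block, replicates 1 and 2 only and the block in the fit of all 12 libraries were chosen after seeing the data. The code was tested on simulated data.

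The members and lists were chosen with earlier results of these data known. Named were all members, Itgb2, Psmb5, Psmb6 and Psmb7, of each other list up to 3 genes per direction with the smallest adjusted p (with the block where none passed without it), class I paralogs with over 10 reads and the 3 genes most like the mean profile. Nrdc, H2-L and H2-K2 of the lists had no row of that name. Some genes of the lists enter the counts but are not reported here by name.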

Additional observations from a re-analysis of the deposited data

Results flagged for a closer look

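The deposited tables also count reads in introns, which entered none of the comparisons above. For 3 members the intron reads, as TMM-scaled CPM, were higher in each of the 6 LPS libraries than in each of the 6 untreated ones, the level measured the same way without LPS. Tap1 introns were 4.317-fold higher in the mean, at 3.94 (range 2.07 to 6.99) against 0.914 (0.400 to 1.33) intron CPM. Replicate 3 had the most Tap1 intron reads after LPS in each genotype, 275 in CD18fl/fl and 156 in cKO. They made up 3.03% and 2.73% of its Tap1 reads, against 0.578% to 1.20% in the other LPS libraries. The CD18fl/fl LPS replicate 3 also had the most intron reads for H2-K1 (1102) and H2-D1 (877). The part of these libraries in the folds was not tested. Psmb9 introns were 3.62-fold higher, at 7.76 (5.71 to 10.9) against 2.14 (1.83 to 3.13) intron CPM. B2m introns were 2.778-fold higher, at 9.88 (7.44 to 12.9) against 3.55 (2.03 to 6.23) intron CPM. B2m lies wholly within Patl2 on the opposite strand, which had 203 to 644 reads per library, and without strand the reads of the 2 genes cannot be told apart. The counts behind these values were small, with 12 to 275 intron reads per library for Tap1, 55 to 292 for Psmb9 and 76 to 385 for B2m, and no test was run on them. The other 7 members overlapped between the treatments in this measure. How many of all genes separate in this way was not counted, so the number of members has no background beside it.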

How the results depend on the processing

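Counts of genes called are given here in the order LPS in CD18fl/fl, LPS in cKO, cKO against CD18fl/fl untreated and cKO against CD18fl/fl with LPS, and stood at 496, 506, 0 and 0 genes and 1, 1, 0 and 0 members in the edgeR fits without the block. With the replicate number as a block they were 1627, 2560, 2606 and 1262 genes and 6, 8, 3 and 2 members. The block with the exon length offset gave 1798, 2552, 1488 and 975 genes and 6, 7, 4 and 3 members. The block with library size only gave 1621, 2748, 4583 and 2642 genes and 3, 6, 6 and 6 members. With RLE factors the block gave 1689, 2580, 2669 and 1226 genes and 6, 8, 3 and 1 members. Uniquely placed reads with the block gave 1680, 2601, 2622 and 1367 genes and 6, 8, 3 and 5 members. DESeq2 gave 1795, 1531, 538 and 150 genes and 5, 3, 0 and 0 members. DESeq2 with the block gave 3131, 3377, 3036 and 1869 genes and 8, 8, 3 and 5 members, and 129 genes for the interaction. All 12 libraries in 1 fit gave 1068, 983, 19 and 45 genes and 5, 2, 0 and 0 members. Without a filter on low counts the fits gave 691, 805, 0 and 1 genes and 2, 2, 0 and 0 members. After seeing the data, the block in the fit of all 12 libraries was added and gave 3365, 3016, 1115 and 623 genes and 8, 8, 1 and 0 members. Replicates 1 and 2 alone, also added after seeing the data, gave 6140, 2049, 1383 and 523 genes and 9, 4, 2 and 1 members. The exon length offset without the block, added as well, gave 2 members for LPS in cKO. The block left the ratio differences at 0.35 (Psmb8 to Psmb5) and 0.52 (Psmb9 to Psmb6). With signs permuted within 6 pairs taken as independent, both came past the threshold (0.0469 each, adjusted over the 3 ratios). Leaving out 1 library at a time gave 0 to 3268 genes and 0 to 7 members for LPS in CD18fl/fl, 0 to 1033 genes and 0 to 2 members for LPS in cKO, and 0 to 1 gene for the genotypes with LPS, and the Psmb10 to Psmb7 difference ran from -0.22 to 0.086. Signs turned between the genotypes untreated for Psmb8 (-0.045 with library size only, -0.052 with block and library size only), Psmb10 (-0.34 with exon length offset, -0.27 with library size only, -0.32 with block and exon length offset, -0.26 with block and library size only) and Nlrc5 (0.21 with exon length offset, 0.20 with block and exon length offset). Signs turned between the genotypes with LPS for Psmb10 (0.00062 with all 12 libraries in 1 fit and block, 0.0096 with DESeq2 and block, 0.014 with block and RLE size factors) and Nlrc5 (0.060 with DESeq2 and block, 0.015 with block, 0.16 with block and exon length offset, 0.052 with block and RLE size factors, 0.016 with block and unique gene reads, 0.43 with replicates 1 and 2 only). Signs turned in the interaction for H2-K1 (0.068 with exon length offset, 0.0081 with library size only, 0.061 with block and exon length offset, 0.0035 with block and library size only), H2-D1 (0.059 with exon length offset, 0.026 with library size only, 0.049 with block and exon length offset, 0.016 with block and library size only), Tap2 (0.031 with block and library size only, 0.031 with replicates 1 and 2 only), Tapbp (-0.036 with CPM of at least 1 in 3 libraries, -0.012 with DESeq2, -0.012 with RLE size factors), Psmb10 (0.047 with exon length offset, 0.057 with block and exon length offset) and Nlrc5 (0.048 with block, 0.093 with block and library size only, 0.049 with block and unique gene reads, 0.54 with replicates 1 and 2 only). Signs turned for LPS in CD18fl/fl for Nlrc5 (-0.29 with replicates 1 and 2 only). Signs also turned without 1 library, with these ranges: between the genotypes untreated Psmb10 (-0.073 to 0.36), Nlrc5 (-0.24 to 0.097), and between the genotypes with LPS Psmb8 (-0.50 to 0.10), Psmb9 (-0.096 to 0.55), Psmb10 (-0.33 to 0.13), Nlrc5 (-1.22 to 1.26), and in the interaction H2-K1 (-0.24 to 0.045), H2-D1 (-0.33 to 0.16), Tap1 (-0.59 to 0.0031), Tap2 (-0.26 to 0.20), Tapbp (-0.30 to 0.50), Psmb10 (-0.49 to 0.090), Nlrc5 (-1.01 to 1.34), and for LPS in CD18fl/fl Nlrc5 (-0.47 to 1.62). None of these members was called in the comparison concerned without the block, and the cause was not tested. With 3 libraries a group, small differences between groups were not detectable.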
